A study of Mus musculus with 2 samples.

Results

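Genes for ubiquitin-conjugating enzymes were described in an accessibility map of maturing mouse erythroid cells. The members were the 37 protein-coding genes, of 21853 in the GENCODE annotation of mm10, whose symbol starts with Ube2. The rule uses gene names and no measured value. Ube2o, Ube2l6 and Ube2h, the members used in red cell maturation, were set against the other 34.

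Ubiquitin is passed from an E1 activating enzyme to an E2 conjugating enzyme, and from there to a substrate that an E3 ligase selects. Some E2 enzymes carry ubiquitin-like proteins in its place, such as NEDD8 or ISG15. Maturing red cells degrade most of their proteins through this system as they fill with hemoglobin. UBE2O acts there as an E2 and E3 in one chain and tags ribosomal proteins and unpaired alpha globin, UBE2H works with the CTLH ligase that contains MAEA, and UBE2L6 conjugates ISG15.

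The cells were G1E-ER4, a single mouse line that lacks its own Gata1 and carries GATA1 fused to the hormone-binding domain of the estrogen receptor, so that estradiol switches on the missing factor. Labels give the strain as C57BL/6J, the sex as male and the stage as postnatal. Both libraries, biological replicates 1 and 2 of 1 group, were made by ATAC-seq, which tags DNA that a transposase can reach, from 50000 cells per library grown for 24 hours with 17Beta-estradiol at 10 nM. Untreated G1E-ER4 cells are not analysed here, so no value below is a response to estradiol, and neither RNA nor protein was measured. The labels do not say whether the replicates were separate cultures.

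An accessible region is a peak, or several overlapping peaks merged, in the authors' lists. The conservative list, of peaks that were reproducible between both libraries at an irreproducible discovery rate (IDR) under 0.05, held 20080 regions. The lists of the single libraries held 14012 in replicate 1 and 15564 in replicate 2, and read depth is unknown. A region touching the 1 kb on either side of a coding transcription start site (TSS) was a promoter region of that gene. A region farther than that from every coding TSS, and within 50 kb of a gene body, was a distal region of that gene. Erythroid genes fixed as markers had promoter regions at 9 of 10 in the conservative list, all but Alas2, beside 42.3% of all protein-coding genes. The counts were 2 of 4 for megakaryocyte, 1 of 5 for myeloid and mast cell, 1 of 4 for lymphoid and 0 of 4 for non-blood markers. In the own lists of replicates 1 and 2 they were 6 and 7 for erythroid, 1 and 2 for megakaryocyte and 1 and 1 for myeloid and mast cell markers. Lymphoid markers had 0 and 1 and non-blood markers 0 and 0. Tal1, an erythroid marker, was in neither own list. Distal regions set the markers apart less: the mean per gene was 3.8 for erythroid, 2 for megakaryocyte, 1.8 for myeloid and mast cell, 1.75 for lymphoid and 2 for non-blood markers, and Nanog, a pluripotency gene, had 4.

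The sequences under the accessible regions of Ube2o, Ube2l6 and Ube2h are shown first, since the results below turn on which motifs the regions hold. Capitals mark every match to 10 patterns searched on both strands, and touching matches run together. The patterns were GATA (those letters with A or T before them and A or G after them), an E-box GATA composite (CTG, 7 or 8 free bases, then the GATA motif), KLF (CCNCNCCC), the GC box (GGGCGG), ETS (CCGGAAG), NRF1 (GCATGCGC), CRE (TGACGTCA), CCAAT, AP-1 (TGANTCA) and the interferon element ISRE (GAAA, 2 free bases, GAAA). The composite contains a GATA match, and KLF and GC box matches often overlap. The first 3 sequences are the 250 bases before the TSS in RefSeq (GRCm38.p6, read along the gene) of Ube2l6 and Ube2h and of Ube2d1, a member without a promoter region. The last is the sequence within 100 bp of the promoter summit of Ube2o.
Ube2l6 before its TSS, chr2:84798578-84798827 (plus strand): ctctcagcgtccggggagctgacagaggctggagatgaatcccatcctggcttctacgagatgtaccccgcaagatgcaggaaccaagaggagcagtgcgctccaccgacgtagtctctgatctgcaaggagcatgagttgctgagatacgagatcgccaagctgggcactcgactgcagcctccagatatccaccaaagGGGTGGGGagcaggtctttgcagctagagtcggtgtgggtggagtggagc
Ube2h before its TSS, chr6:30304540-30304789 (minus strand): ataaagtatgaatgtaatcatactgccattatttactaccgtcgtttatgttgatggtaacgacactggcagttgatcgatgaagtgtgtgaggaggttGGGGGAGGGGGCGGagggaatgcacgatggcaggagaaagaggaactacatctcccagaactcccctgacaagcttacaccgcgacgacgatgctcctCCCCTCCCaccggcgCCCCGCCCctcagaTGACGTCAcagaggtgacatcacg
Ube2d1 before its TSS, chr10:71285263-71285512 (minus strand): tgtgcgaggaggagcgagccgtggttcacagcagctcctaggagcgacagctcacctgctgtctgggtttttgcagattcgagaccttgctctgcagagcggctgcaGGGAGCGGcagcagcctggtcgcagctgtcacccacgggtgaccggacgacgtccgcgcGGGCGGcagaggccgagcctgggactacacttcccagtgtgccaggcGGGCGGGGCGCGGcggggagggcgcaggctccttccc
Ube2o promoter summit, chr11:116581483-116581683 (plus strand): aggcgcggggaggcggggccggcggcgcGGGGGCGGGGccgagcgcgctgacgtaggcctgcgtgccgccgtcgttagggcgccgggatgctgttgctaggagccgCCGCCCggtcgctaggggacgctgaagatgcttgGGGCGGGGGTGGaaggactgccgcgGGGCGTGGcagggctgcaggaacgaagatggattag

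KLF matches were in all 4 of these sequences, and GC box matches were in those of Ube2h, Ube2d1 and Ube2o. The CRE match, TGACGTCA, reads the same on both strands and lay close to the TSS of Ube2h. Ube2l6 has a second promoter region, in its first 1 kb and inside an intron, whose sequence within 100 bp of the summit held ISRE matches (the first capital run, read from the other strand), a GATA match (TTATCT) and a GC box.
Ube2l6 intronic promoter region, chr2:84799332-84799532 (plus strand): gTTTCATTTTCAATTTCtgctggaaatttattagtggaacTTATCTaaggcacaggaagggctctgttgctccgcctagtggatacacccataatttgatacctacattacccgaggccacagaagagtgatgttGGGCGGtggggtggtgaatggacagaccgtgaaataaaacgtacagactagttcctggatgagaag

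The distal regions that follow are shown as the 101 bases around the summit on the plus strand, where a GATA match on the other strand reads TATC with 1 more capital on either side. They include both composites found in distal regions of the 3 genes (the third and the fifth), the strongest region within Ube2o, and regions with and without GATA at Ube2h.
Ube2o intron, strongest, chr11:116549389-116549489 (plus strand): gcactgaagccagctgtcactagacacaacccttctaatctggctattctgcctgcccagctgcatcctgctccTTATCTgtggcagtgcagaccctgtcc
Ube2o intron, nearer the TSS, chr11:116573379-116573479 (plus strand): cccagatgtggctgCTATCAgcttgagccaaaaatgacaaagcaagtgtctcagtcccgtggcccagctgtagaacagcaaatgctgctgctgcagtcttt
Rhbdf2 intron, upstream of Ube2o, chr11:116615799-116615899 (plus strand): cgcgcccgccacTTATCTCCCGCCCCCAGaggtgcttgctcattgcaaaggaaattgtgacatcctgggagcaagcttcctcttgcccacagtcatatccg
Ube2l6 intron, distal, chr2:84800457-84800557 (plus strand): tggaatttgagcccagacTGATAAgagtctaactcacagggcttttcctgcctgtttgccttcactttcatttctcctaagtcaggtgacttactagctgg
Smtnl1 intron, downstream of Ube2l6, chr2:84812075-84812175 (plus strand): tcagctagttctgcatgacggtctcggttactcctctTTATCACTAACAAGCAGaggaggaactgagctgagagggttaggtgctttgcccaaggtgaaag
Slc43a1 intron, downstream of Ube2l6, chr2:84842130-84842230 (plus strand): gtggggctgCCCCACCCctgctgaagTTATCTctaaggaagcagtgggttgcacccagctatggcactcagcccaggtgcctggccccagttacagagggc
Ube2h intron, chr6:30300487-30300587 (plus strand): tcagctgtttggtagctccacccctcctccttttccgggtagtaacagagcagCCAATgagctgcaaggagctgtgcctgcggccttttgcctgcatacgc
Upstream of Ube2h, chr6:30307826-30307926 (plus strand): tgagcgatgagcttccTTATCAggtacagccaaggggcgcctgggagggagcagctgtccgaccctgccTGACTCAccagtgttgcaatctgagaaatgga

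Most Ube2 genes had an accessible promoter. In the conservative list 28 of 37 members (75.7%) had a promoter region, beside 42.3% of all protein-coding genes. In the own list of each replicate the count was 27 members, or 73.0% ± 0 (SD, n = 2), beside 38.8% of genes in replicate 1 and 39.9% in replicate 2. The 2 lists shared 25 of these members. A looser replicated list, without the IDR threshold, gave 30 members beside 46.9% of genes.

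The members' start sites were richer in CpG than those of most genes. The ratio was observed to expected CpG in the 1001 bp around the TSS, as the highest value over the coding TSS of a gene. A gene with more TSS therefore has more chances of a high ratio. Its median was 0.885 over members with a promoter region, 0.855 over those without and 0.614 over all genes. Of the 32 members at or above a ratio of 0.6, 27 had a promoter region, beside 69.5% of genes at or above it. Of the 5 members below that ratio, 1 had a promoter region, beside 13.5% of such genes, and it was Ube2l6, with a ratio of 0.511. The excess of members over the background was thus smaller within genes of like CpG ratio, and what part the ratio has in it was not tested.

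Where a promoter region was present, its signal was usually below the middle of the genes' range. Signal is the authors' value per peak, of unstated scale, and is ranked here only within 1 list, as a percentile among the genes with a promoter region in that list. The strongest promoter region of the members had a median signal of 12.2 (range 6.04 to 22.2), against 13.9 over 9244 genes, whose interquartile range was 10.9 to 17.2. The median percentile of the members was 35.4, and 9 of 28 were above the median gene. The median position of the strongest summit was −60 bp relative to the TSS, and 24 of 28 were within 200 bp. More than 1 promoter region was called at 6 members, Ube2e3, Ube2j2, Ube2l6, Ube2m, Ube2o and Ube2q1, and 17.3% of the genes with a promoter region had more than 1.

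**Figure D1:**
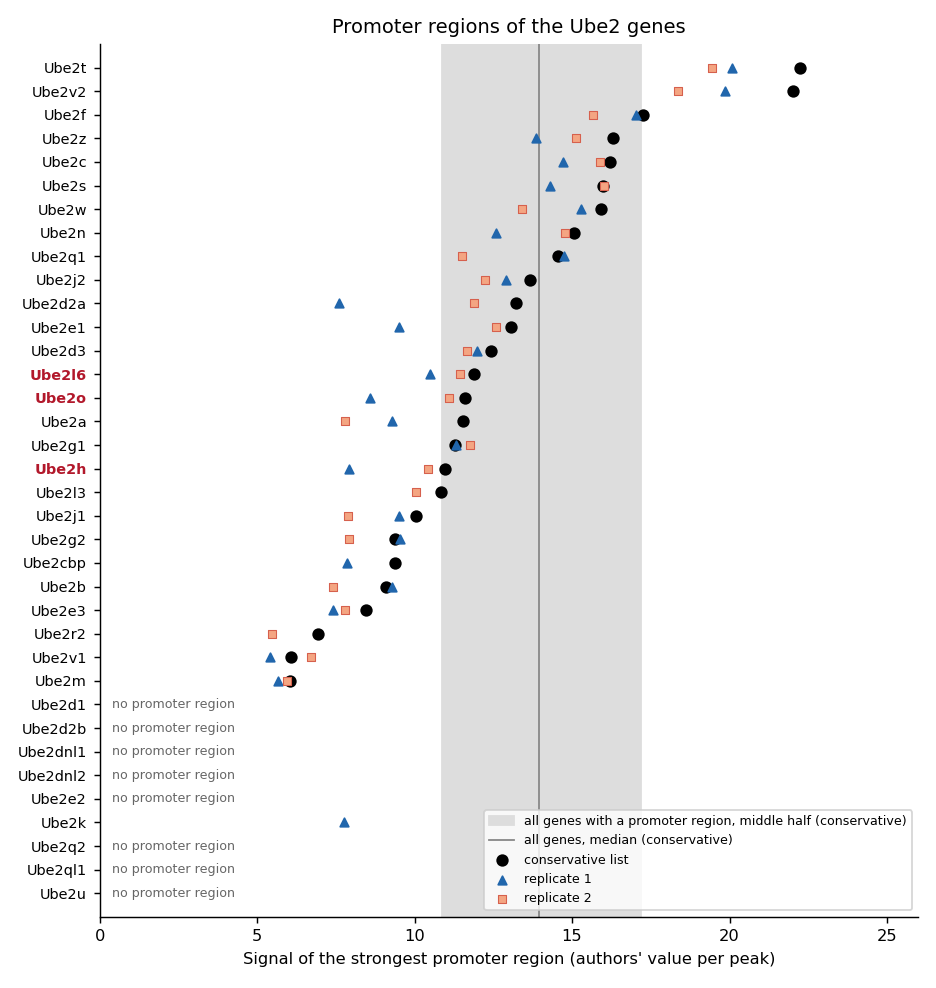
Signal of the strongest promoter region (x axis, authors' value per peak) of 36 Ube2 genes (rows, ordered by the conservative list), in the conservative list (black circles), replicate 1 (triangles) and replicate 2 (squares). The grey band is the interquartile range of all genes with a promoter region in the conservative list and the line their median of 13.9, and 18 of the 27 genes drawn with a region lie left of that line, with Ube2o, Ube2l6 and Ube2h (red names) between 10.97 and 11.9.

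Ube2t and Ube2v2 stood apart at the top. Ube2t, an E2 of the Fanconi anemia DNA repair pathway, had a signal of 22.2 at chr1:134962150-134962753, with 20.1 in replicate 1 and 19.5 in replicate 2, percentiles 97.2 and 94.6 of those lists. Ube2v2, a variant without catalytic cysteine that partners UBE2N in building chains, reached 22.01, with 19.8 and 18.4 in the replicates (percentiles 96.7 and 91.02). Both were above every other member in each list. Next came Ube2f, an E2 for NEDD8, at 17.3, Ube2z, which is charged by UBA6, at 16.3, and Ube2c, which starts chains on substrates of the anaphase-promoting complex, at 16.2. All 3 were above the median gene in both replicates.

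At the low end, Ube2m, the other E2 for NEDD8, had a signal of 6.04, percentile 1.74, with 5.66 and 5.95 in the replicates. Its second promoter region (4.88), like that of Ube2e3 (4.55), is left out of this ranking by the strongest region. Ube2v1, the close relative of Ube2v2 that also partners UBE2N, had 6.09, with 5.41 and 6.72. So both pairs of E2s with a shared role, Ube2f with Ube2m and Ube2v2 with Ube2v1, spanned most of the members' range in all 3 lists. Ube2r2, which serves cullin ligases, had 6.92 and was in the own list of replicate 2 alone (5.48). Ube2e3 followed with 8.45 (7.41 and 7.78 in the replicates), and Ube2b, one of 2 mouse counterparts of yeast Rad6, with 9.11 (9.28 and 7.41). Ube2l3, which serves HECT and RBR ligases, was also called in replicate 2 alone, with a signal of 10.8 in the conservative list and 10.04 in replicate 2.

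By role, every member assigned to the cell cycle and DNA repair had a promoter region, 5 of 5 (Ube2a, Ube2b, Ube2c, Ube2s and Ube2t), with a median signal of 15.98. The same held for 3 of 3 at the membrane of the endoplasmic reticulum or in the degradation of its proteins (Ube2j1, Ube2j2 and Ube2g2), with a median of 10.04. Chain builders had regions at 7 of 8, all but Ube2k, and broad initiators, which serve many ligases, at 6 of 9. Less studied members had them at 2 of 7, Ube2q1 and Ube2cbp. Ube2cbp matches the name rule but encodes an E3 that binds UBE2C, and it was called in replicate 1 alone (7.84). A member can count in more than 1 role. These counts stand beside 42.3% of all genes with a promoter region, and 69.5% of genes at or above the CpG ratio threshold given above. All members of the cell cycle and endoplasmic reticulum roles were at or above that threshold. The roles hold few members, and their shares were not tested against either background.

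The 9 members without a promoter region fell into those at the edge of detection and those absent throughout. Ube2k had a region in the own list of replicate 1 (7.76) and, like Ube2q2, in the looser list (7.06 and 6.33). In none of the 7 lists examined did Ube2d1, Ube2d2b, Ube2dnl1, Ube2dnl2, Ube2e2, Ube2ql1 or Ube2u have one. Of these 7, Ube2d1, Ube2e2 and Ube2ql1 have CpG-rich start sites (ratios of 0.855, 0.989 and 0.893), while the ratios of Ube2d2b, Ube2dnl1, Ube2dnl2 and Ube2u ran from 0.245 to 0.458. Within the family of Ube2d1, whose proteins are near-identical broad initiators, Ube2d2a and Ube2d3 did have promoter regions (13.2 and 12.4), called in both replicates. Copies of near-identical DNA sequence can lose reads that map to more than 1 place, and the sources used here do not say how such reads were handled. Likeness of proteins does not show likeness of promoter DNA, and whether lost reads bear on any member was not tested.

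The promoters of the 3 red cell members were all accessible, and their strongest regions had middling to low signal. For Ube2l6, chr2:84798484-84798964, signal was 11.9 in the conservative list, 10.5 in replicate 1 and 11.5 in replicate 2, percentiles 32.95, 28.02 and 35.8 of genes. For Ube2o, chr11:116581407-116581861, it was 11.6, 8.58 and 11.1, percentiles 31.04, 11.6 and 32.4. For Ube2h, chr6:30304391-30304775, it was 10.97, 7.92 and 10.4, percentiles 25.8, 8.14 and 26.4. By the strongest region all 3 were thus below the median gene in these 3 lists, and Ube2o and Ube2h ranked much lower in replicate 1 than in replicate 2, while Ube2l6 differed less. Where the signal of all promoter regions of a gene was summed, the median percentile of the 3 was 72.6, above the median gene, against 31 by the strongest region, since Ube2o and Ube2l6 have 2 regions each.

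Among the 28 members with a promoter region the 3 ranked 15th (Ube2l6), 16th (Ube2o) and 19th (Ube2h). The other 25 had a median of 13.05 and ranged from 6.04 to 22.2, so the 3 lay inside the range of the rest. Their own range was 10.97 to 11.9, and a range over 3 genes tends to be narrower than one over 25. Second promoter regions were called at Ube2l6 (chr2:84799201-84799550, signal 6.48, with 5.94 and 5.81 in the replicates) and at Ube2o (chr11:116580006-116580577, in its intron, signal 8.66, with 7.99 and 7.65). All 5 promoter regions of the 3 genes were in both replicates' own lists, beside 79.9% of all promoter regions. The Ube2h region also overlaps an exon of the noncoding gene 1700095J07Rik, so it cannot be assigned to 1 of the 2 genes.

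Distal regions were somewhat more frequent around the Ube2 genes than around genes at large. At least 1 was present within 50 kb of 23 members, beside 49.8% of all genes, and at least 3 at 8 members, beside 16.1% of genes. The mean was 1.57 per member (median 1) against 1.15 per gene (median 0). In the replicates' own lists the members' mean was 1.11 and 1.27, or 1.19 ± 0.115 (SD, n = 2), against 0.626 and 0.752 over all genes. The members' mean was thus above that of all genes in both replicates. The SD is between libraries for the same genes and does not measure the spread among genes. Genes with a promoter region had more distal regions in general, 1.72 on average, and the members with one had 1.93, with a median of 1 in both. The median gene body of members was 30280 bp against 17380 bp over all genes, and a longer body widens the window searched. The part of promoter status and gene length in the difference was not tested.

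The distal regions were spread unevenly over the family. The count was 0 at 14 members, 1 or 2 at 15 and 3 or more at 8. Ube2o and Ube2v1 had 7 each, Ube2l6 and Ube2c 5 each, Ube2l3 and Ube2s 4 each, and Ube2h and Ube2d2a 3 each. The 9 members without a promoter region had 4 distal regions in total, and 8 members with a promoter region had none, among them Ube2v2, which had the second highest promoter signal.

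**Figure D2:**
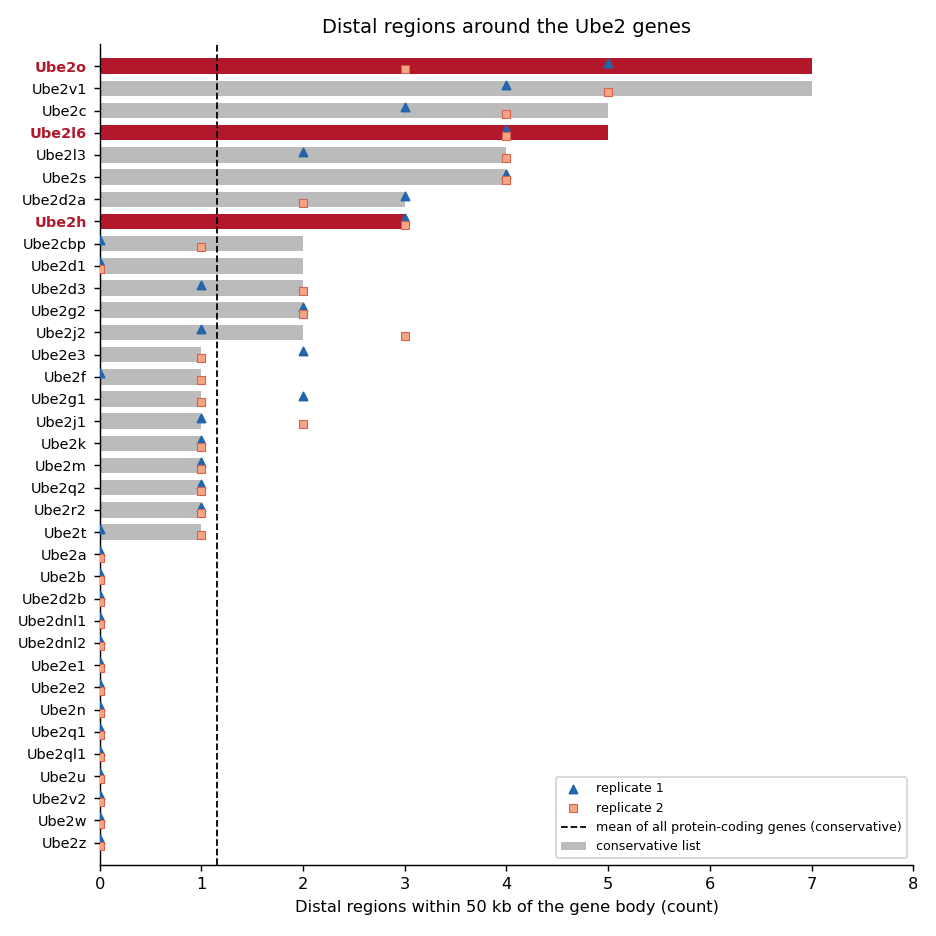
Count of distal regions (x axis) assigned to 36 Ube2 genes (rows) by the 50 kb window, with the conservative list as bars and the own lists of replicate 1 (triangles) and replicate 2 (squares) as points. The dashed line is the mean of all protein-coding genes, 1.15, and Ube2o, Ube2l6 and Ube2h (red bars) reach 7, 5 and 3, while 14 genes are at 0.

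All 58 distal regions of members were near 1 member only. Introns held 35 of them, exons 5 and intergenic sequence 18, and 14 had the summit within the body of the member itself. Both replicates' own lists held 35 (60.3%), against 42.7% of all 10368 distal regions, and 13 (22.4%) were in neither, against 32.9%. Their signal had a median of 9.50 (range 4.004 to 21.8), close to the 9.40 of all distal regions. The strongest, chr16:17222259-17222578 with 21.8, lay upstream of Ube2l3 and was nearer to the start of Hic2.

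Ube2o, Ube2l6 and Ube2h had more distal regions than most of the family. Their counts were 7, 5 and 3, a mean of 5, against a mean of 1.26 and a median of 1 over the other 34 members, which ranged from 0 to 7. In replicate 1 the counts were 5, 4 and 3, and in replicate 2 they were 3, 4 and 3. Averaged over the replicates, the 3 had 3.67 ± 0.471 and the others 0.971 ± 0.166 (SD, n = 2). This SD is between libraries for the same genes and does not measure the spread among genes. Ranges still overlapped, since Ube2v1 equalled Ube2o in the conservative list and exceeded all 3 in replicate 2 with 5. In replicate 2 Ube2c, Ube2l3 and Ube2s had 4 each, equal to Ube2l6 and above Ube2o and Ube2h. Among all genes the counts stood at percentiles 98.6, 95 and 83.9. Genes are not replicates, so no test was made of 3 genes against 34.

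The excess kept its direction under the other lists and windows tried. Over 14 settings of list, threshold, window and TSS, the mean of the 3 was above the mean of the others in 14, and each of the 3 was above the median of the others in 14. In 8 of the 14 another member had at least as many distal regions as the highest of the 3. The size of the gap did depend on the assignment of regions: counted only for the gene with the nearest coding TSS, Ube2o kept 2, Ube2l6 1 and Ube2h 2, against 5 for Ube2v1.

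**Figure D3:**
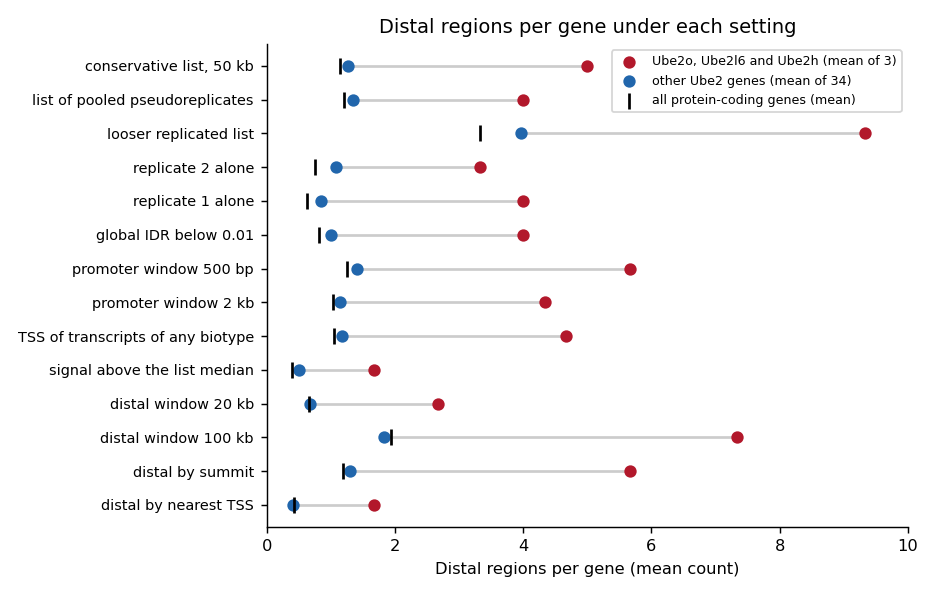
Mean number of distal regions per gene (x axis) under 14 settings (rows) for Ube2o, Ube2l6 and Ube2h (red), the other 34 Ube2 genes (blue) and all protein-coding genes (black marks). Red lies right of blue in every row, from 1.67 against 0.412 when each region counts only for the nearest start site to 9.33 against 3.97 in the looser replicated list.

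At Ube2o, on the minus strand at chr11:116537740-116581447, 3 of the 7 distal regions lay in its own introns. The strongest, chr11:116549233-116550018, had a signal of 12.8 (9.38 in replicate 1 and 11.7 in replicate 2), lay 32.01 kb into the gene, nearer to the start of Sphk1 (14.7 kb), and held GATA. A second, chr11:116573183-116573824, had 9.84 (7.49 and 7.92), lay 8.02 kb in and also held GATA. Another, chr11:116565328-116565649, had 8.93, held KLF and AP-1 matches and no GATA, and was in neither replicate's own list. Of these 3 intronic regions, all in the conservative list, the 2 with GATA were also in both replicates' own lists. This did not hold for all 7, since regions with GATA outside the body were not in both lists and a region without GATA was.

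The other 4 regions near Ube2o were outside its body, and each was likewise closer to the start of another gene. Of 2 in an intron of Rhbdf2, which encodes an inactive rhomboid protein, chr11:116615662-116616058 (7.62) held the composite and was in neither replicate's own list, while chr11:116616134-116616520 (7.31, with 6.26 and 7.34) had no GATA. One lay 2.145 kb from the start of Sphk1, a sphingosine kinase gene, with a signal of 4.53, held GATA and was called in replicate 1 alone. The last, nearest to Prpsap1, had 8.68, also held GATA and was in neither. In all, both replicates' lists held 3 of the 7 regions.

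Ube2l6, on the plus strand at chr2:84798828-84810335, has a short body that held 1 of its 5 distal regions. That region, chr2:84800245-84800649, had a signal of 7.44 (7.08 and 6.49), lay 1.67 kb from the TSS and held GATA. The 2 strongest lay beyond its 3′ end, chr2:84841917-84842341 in an intron of Slc43a1, an amino acid transporter gene, at 14.2 (11.5 and 13.3), with GATA and KLF, and chr2:84811836-84812517 in an intron of Smtnl1, which encodes a smoothelin-like protein, at 13.2 (10.6 and 12.4), with the composite. These 3 regions, all with GATA, were in both replicates' own lists. The remaining 2 had a signal of 12.04 (called in replicate 1 alone, at 8.40) and of 8.87 (called in replicate 2 alone, at 8.59), and had no match to any of the 10 patterns within 100 bp of the summit. The Slc43a1 region stood 1.555 kb from that gene's start.

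At Ube2h, on the minus strand at chr6:30211289-30304539, all 3 distal regions were in both replicates' own lists. That in its own intron, chr6:30300372-30300749, had a signal of 10.1 (8.38 and 9.53), lay 3.985 kb into the gene and held a CCAAT match. At −3.34 kb, which is upstream, chr6:30307691-30308116 had 7.91 (7.01 and 7.28), overlaps an exon of 1700095J07Rik as well and held GATA and AP-1. The strongest, chr6:30173847-30174385 with 12.9 (9.74 and 9.74), lay beyond the 3′ end at 130.3 kb from the TSS, overlaps an exon of the noncoding gene Rncr4 and held KLF, GC box, CCAAT and AP-1 matches. Of the 3, 1 held GATA, against 5 of 7 at Ube2o and 3 of 5 at Ube2l6, beside 51.0% of all distal regions. These counts are small, and the difference between the genes was not tested.

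**Figure D4:**
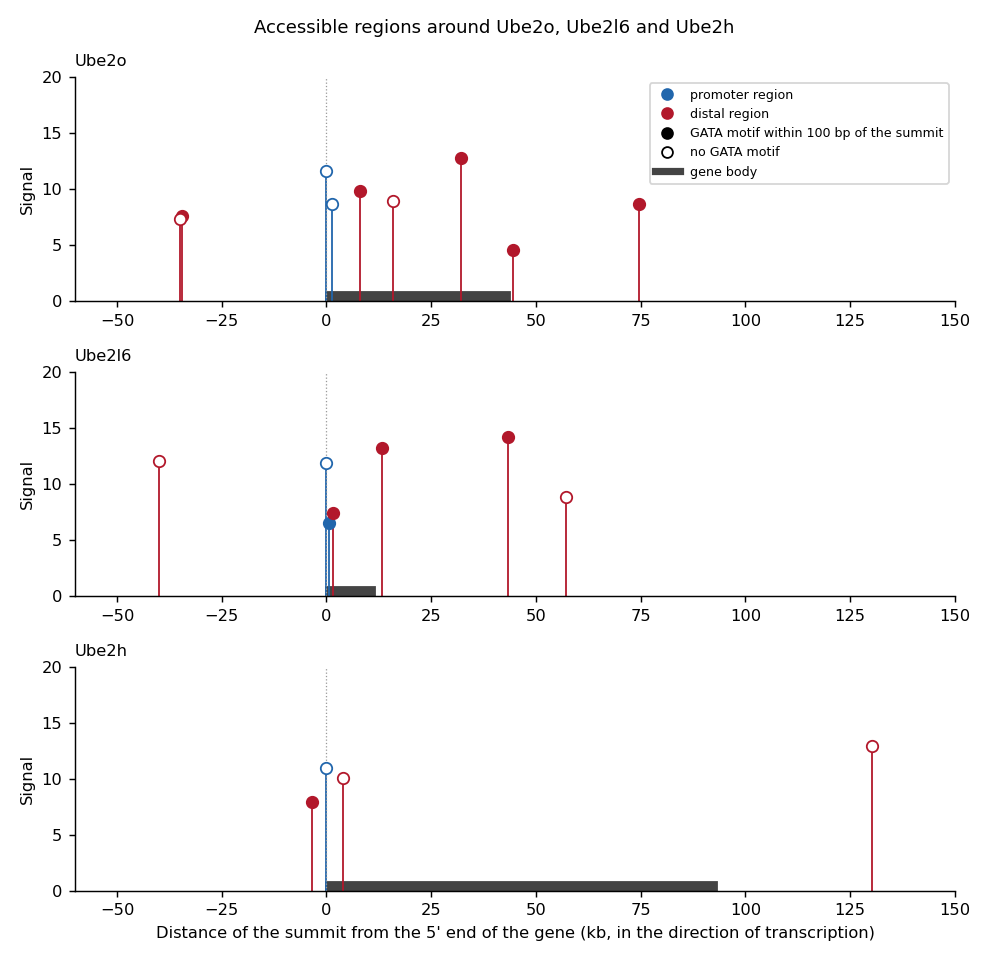
Accessible regions of the conservative list around Ube2o, Ube2l6 and Ube2h, by distance of the summit from the 5′ end of the gene in the direction of transcription (x axis, kb) and by signal (y axis, authors' value per peak). Blue marks promoter and red distal regions, filled circles hold a GATA match within 100 bp of the summit, and the bar is the gene body. The filled circles number 5 among the distal regions of Ube2o, 3 of Ube2l6 and 1 of Ube2h. GATA was in 51.0% of all distal regions.

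Across the family, as over all regions of the list, GATA matches were more frequent in distal than in promoter regions. GATA matches were in 34 of 58 distal regions (58.6%), beside 51.0% of all distal regions, and in 4 of 34 promoter regions (11.8%), beside 13.8% of all 9712 promoter regions. The composite was in 12 distal regions (20.7%, beside 11.8%) and in 0 promoter regions (beside 1.80%). Regions of the 3 red cell members had GATA in 9 of 15, against 25 of 43 for the others, and the composite in 2 of 15, against 10 of 43, and neither difference was tested. A match is a run of letters, and binding was not measured.

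KLF matches were in 26 of 34 promoter regions (76.5%, beside 61.7% of all) and in 27 of 58 distal ones (46.6%, beside 33.8%). The GC box was in 20 promoter regions (58.8%, beside 60.8%), ETS in 8 (23.5%, beside 19.0%), CCAAT in 8 (23.5%, beside 36.95%), CRE in 2 (5.88%, beside 3.71%), AP-1 in 1 (2.94%, beside 3.05%) and NRF1 in 0 (beside 4.61%). These shares were near the background for GC box, ETS and AP-1. The ISRE was in 1 promoter region, the intronic one of Ube2l6 shown above, beside 1.33% of all promoter regions and 1.64% of all distal ones. Ube2l6 is known as an interferon-induced gene, and no interferon was used here according to the labels.

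Of 35 other genes of the pathway, listed by role, 29 had a promoter region in the conservative list (beside 42.3% of all genes), 26 in replicate 1 and 28 in replicate 2. Their mean number of distal regions was 1.86 (median 1), beside 1.15 per gene and 1.57 per Ube2 member, and 24 had at least 1 (beside 49.8% of genes). The ubiquitin genes themselves had promoter regions at 4 of 4, E2 enzymes of other names at 5 of 5, and E1 enzymes at 7 of 8. Uba7, the E1 for ISG15, lacked one in the conservative list and had one of 3.93 in replicate 1. The most distal regions were around Sae1, a subunit of the E1 for SUMO, with 10 (9 in each replicate), and Atg10, an E2-like enzyme of autophagy, with 7 (2 and 3).

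Known partners of the red cell members were covered unevenly, in lists of few genes, beside 42.3% of all genes with a promoter region. The CTLH ligase, which works with UBE2H, had promoter regions at 10 of 11 genes, all but Ranbp9. In the own lists of the replicates the count was 8 in replicate 1 and 10 in replicate 2. The region of Maea, one of its RING subunits, had a signal of 21.3 (20.05 and 17.9), percentile 94.4. The ISG15 pathway of UBE2L6 had 1 of 4, at Usp18, the protease that removes ISG15 (10.3, with 9.68 and 9.23), and none at Isg15, Herc6, its E3, or Uba7. Among E3 genes of red cells, Trim10 (13.7, with 11.8 and 13.5) and Fbxo7 (7.25, in neither replicate's own list) had one, while Trim58 and Siah1a did not. In the looser replicated list Ranbp9 (4.77), Trim58 (4.24), Siah1a (5.45) and Uba7 (5.06) each had one. Ube2l6 thus had an accessible promoter while the genes for its modifier, its E1 and its E3 had none in the conservative list.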

How the data were processed

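Peak lists of 2 ATAC-seq libraries of 1 group were analysed. Per the labels, the authors' files are on mm10. A text file deposited beside the lists says that the authors made them from each library, from pooled pseudoreplicates and from both replicates by IDR, and used an exclusion list. The sources used here do not name the aligner, peak caller, read filters or any shift of read ends, and read depth is unknown. The signal per peak is the authors' deposited value, of unstated scale. The score of the deposited ranked list is −log10 of the global IDR, and all 29337 conservative peaks were found in it below 0.05.

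Overlapping peaks were merged and the strongest summit stood for the region. Regions were assigned to genes of GENCODE release M21 with a coding transcript (54361 TSS). A region counted as called in a replicate where 50% or more of the shorter of the 2 regions overlapped. Percentiles run over genes with a promoter region in that list, and give the percent with lower signal. Motifs were sought within 100 bp of each summit. Sequences come from GRCm38.p6, and promoter sequences from RefSeq on that build. Python 3.11.15, NumPy 2.4.6, pandas 2.3.3 and pysam 0.24.0 were used, and the assignment was tested on simulated regions. No test was run, since there is 1 group and genes are not replicates.

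Genes named are Ube2o, Ube2l6 and Ube2h, all members without a promoter region, the 5 highest and 5 lowest by promoter signal, the 5 with most distal regions with ties, and, of the pathway, genes without a promoter region and the 2 with most distal regions. Ube2cbp, Ube2d2a, Ube2d3, Maea, Usp18, Trim10, Fbxo7, the members listed by role and the members with more than 1 promoter region were added after their values were seen. Counts cover all 37 members, and 1 of them is not reported here by name or drawn. The members and lists were chosen with earlier results of these data known. Alternatives were other lists, thresholds, windows and TSS sets, and the comparison at like CpG ratio was chosen after seeing the data.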

Additional observations from a re-analysis of the deposited data

How the results depend on the processing

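The count of members with a promoter region stayed within 1.5 times of 28 under each alternative run, from 20 (regions above the median signal of the list) to 30. The number of members with a distal region, 23, fell to 12 when a region counted only for the gene with the nearest TSS. The mean number of distal regions per member, 1.57, was 4.41 in the looser replicated list, 1.24 at a global IDR below 0.01, 1.76 and 1.41 with promoter windows of 500 bp and 2 kb, 0.595 above the median signal, 0.838 and 2.27 with distal windows of 20 kb and 100 kb, and 0.514 by nearest TSS. It ranged from 1.11 to 1.27 in the list of 1 replicate alone. The total for Ube2o, Ube2l6 and Ube2h, 15, was 28 in the looser list, 5 above the median signal, 8 within 20 kb and 5 by nearest TSS, and 10 to 12 in 1 replicate alone. Their median promoter percentile, 31, was 11.6 in replicate 1 alone and 32.4 in replicate 2 alone, and 72.6 where signal was summed over all promoter regions of a gene, as Ube2o and Ube2l6 have 2 each, which puts it above the median gene in place of below. No paired analysis was possible because there is 1 group. Depth is unknown, so a missing region may lie below detection, and with 2 libraries the SD is itself imprecise.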
